A study of Mus musculus with 12 samples.

Results

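The 10 genes described here belong to the antioxidant axis that is built around the transcription factor NRF2. They were chosen by name: *Nfe2l2*, which encodes NRF2, *Keap1*, which encodes its inhibitor, and the antioxidant genes *Hmox1*, *Gclm*, *Gclc*, *Nqo1*, *Txnrd1*, *Srxn1*, *Slc7a11* and *Sod2*. All 10 were present among the 12850 genes of the deposited table, and all 10 passed the filter on low values, which kept 11885 genes. RNA was sequenced from peritoneal exudate cells (PECs), the macrophage-rich cells that gather in the peritoneal cavity after injection of thioglycollate medium. The C57BL/6 mice were wild type (WT) or carried *Zc3h12a* S513A/S513A (S513A), a point mutation in every cell of the animal that replaces a serine of Regnase-1, an RNase that degrades inflammatory mRNAs, and that the study made to remove a phosphorylation site. The WT and the S513A cells were each left without lipopolysaccharide (LPS, 0 hr) or stimulated with LPS, a component of the outer membrane of Gram-negative bacteria, at 100 ng/ml for 4 or 8 hr. Each of these 6 groups had 2 libraries, 12 in all. PECs of every group were collected 3.5 days after 2 ml of 4% thioglycollate medium and cultured with 10% serum and 100 µM 2-mercaptoethanol, a reducing thiol, so the 0 hr cells were in that medium too. The ages of the mice are not given in the labels, and the labels do not say whether the libraries of a group came from separate mice, so p-values measure only the spread between these libraries.

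NRF2 is made continuously and, in resting cells, KEAP1 hands it to a CUL3 ubiquitin ligase for degradation. Oxidants and electrophiles modify cysteines of KEAP1, NRF2 then accumulates, pairs with small MAF proteins and binds antioxidant response elements (AREs) near genes for glutathione synthesis, thiol reduction, quinone reduction and heme breakdown. Activated macrophages are exposed to their own superoxide and nitric oxide and make itaconate, an electrophile that can modify KEAP1, and several of these genes, *Sod2* and *Hmox1* among them, also respond to other transcription factors.

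ARE-like letters were looked for in the promoters of the 10 genes, to show which of them carry the motif close to the start of transcription. RefSeq promoters (GRCm38.p6), each running from 250 bases before to 50 bases after a start, were matched for 8 genes and 10 starts. *Hmox1* and *Gclc* had no entry. TGACNNNGC, searched on both strands, was found in 4 of the 10 promoters, and in 12.4% of the 32851 mouse promoters of the same length. TGANTCA, an AP-1-like motif searched on both strands, was found in 1 of the 10, that of *Srxn1*, in 2 copies, and in 7.81% of all promoters. No copy of one motif overlapped a copy of the other. The sites are written on the strand of the gene with the motif in capitals, and in *Gclm*, *Txnrd1* and *Srxn1* the ARE-like letters lie on the opposite strand, so the capitals are the reverse complement of the motif.
Nfe2l2 ARE-like: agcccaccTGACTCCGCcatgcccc
Gclm ARE-like: tcccgggcGCACCGTCAactctcac
Txnrd1 ARE-like, at the second of its listed starts: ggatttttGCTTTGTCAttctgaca
Srxn1 ARE-like: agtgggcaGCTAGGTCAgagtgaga
Srxn1 AP-1-like, distal copy: ggagggccTGAGTCAccacgctg
Srxn1 AP-1-like, proximal copy: attcacccTGAGTCAgcggccgg
Counted from the first transcribed base as 0, the capitals begin at -240 in *Nfe2l2* (chr2:75704887-75704911, minus strand), at -134 in *Gclm* (chr3:122245415-122245439, plus strand) and at -92 in *Txnrd1* (chr10:82859106-82859130, plus strand). In *Srxn1*, on the plus strand, they begin at 28 for the ARE-like letters (chr2:152105544-152105568), and at -102 (chr2:152105414-152105436) and -45 (chr2:152105471-152105493) for the AP-1-like letters. These matches describe letters in a short window and were not tested as binding sites.

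Levels are given as log2 CPM, the deposited unit: read counts scaled to library size (CPM) on a log2 scale, so that a difference of 1 is a 2-fold change. Each library held 9525979 to 12439960 reads, and the 10 genes had between 268 and 28811 reads each, far above the 3 reads that were taken as the floor. The labels were checked with 6 genes known to be induced by LPS (*Tnf*, *Il1b*, *Il6*, *Cxcl1*, *Nfkbia* and *Acod1*), and all 6 rose at 4 hr and at 8 hr. The summed level of 7 macrophage markers was between 16165 and 26353 CPM, with no marker at 0. It overlapped between the genotypes at 0 and 4 hr, but at 8 hr was 22951 to 23922 in WT and 16165 to 21683 in S513A. *Lyz2*, the highest of the 7, was then at 13.94 and 14.025 log2 CPM in WT and 13.137 and 13.861 in S513A, whereas *Mertk* was higher in S513A. For neutrophils, only *S100a8* and *Csf3r* of 6 markers were listed, and their sum was 103 to 122 CPM at 0 hr, 137 to 181 at 4 hr and 160 to 212 at 8 hr, so it moved with LPS. Summed markers of B cells, T cells, mast cells and mesothelial cells stayed under 9 CPM, and *Siglecf*, the 1 eosinophil marker listed, was at 15.2 to 18.3 CPM at 0 hr and 2.98 to 4.32 CPM at 8 hr. Of 4 erythroid markers 0 were listed. Summed markers of resident peritoneal macrophages were at 27.0 to 32.4 CPM in WT and 18.6 to 23.3 in S513A at 0 hr. At 8 hr their sum was 48.1 to 57.7 in WT and 24.8 to 30.04 in S513A, so it moved with LPS and with the genotype. The 5 markers did not move together. In WT *Timd4* rose from 3.49 and 3.41 log2 CPM at 0 hr to 5.04 and 5.27 at 8 hr. There *Selp* fell from 1.27 and 1.81 to -1.23 and -2.07, and *Gata6* fell too. At 8 hr *Timd4* and *Cxcl13* were lower in S513A, whereas *Gata6*, *Selp* and *Icam2* overlapped between the genotypes. The part of these other cells in the results was not tested. RNA of the whole preparation was measured, so that fewer cells of a type and less RNA per cell cannot be told apart. The replicates of S513A 8 hr, of S513A 4 hr and of WT 4 hr differed most from each other along a pattern. It held 39.2% of the variance between replicates. With 2 libraries in a group, neither can be named the odd one. S513A 8 hr replicate 1, S513A 4 hr replicate 1 and WT 4 hr replicate 2 were the lower on it. They are called the 3 libraries that stood apart, though their partners stood as far on the other side. Calls of the 10 genes that change without these 3 libraries are given with and without them.

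Per kilobase of exon, *Hmox1* had the highest level of the 10 genes at 0 hr, with a mean of 237 CPM per kb over the 4 libraries (range 219 to 249). *Srxn1* followed at 169 (150 to 198), then *Txnrd1* at 86.5 (81.6 to 96.9) and *Nfe2l2* at 84.0 (75.0 to 90.1), which overlapped each other. *Gclm* was at 46.7 (40.7 to 55.1), *Sod2* at 35.4 (29.3 to 44.5), *Nqo1* at 23.1 (16.0 to 29.3), *Slc7a11* at 18.5 (16.7 to 21.1) and *Gclc* at 16.8 (16.1 to 17.3) CPM per kb. Each of these 5 genes overlapped its neighbour in that order. *Keap1* was lowest at 9.90 (9.06 to 10.3) CPM per kb. At 4 hr *Srxn1* was first at 366 CPM per kb (327 to 385) and overlapped *Hmox1* at 333 (302 to 379). After 8 hr of LPS *Hmox1* was highest at 735 CPM per kb (604 to 839) and *Keap1* lowest at 17.9 (17.0 to 18.4), while *Slc7a11* had passed from 18.5 at 0 hr through 167 at 4 hr (153 to 190) to 94.7 at 8 hr (82.4 to 104).

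**Figure D1:**
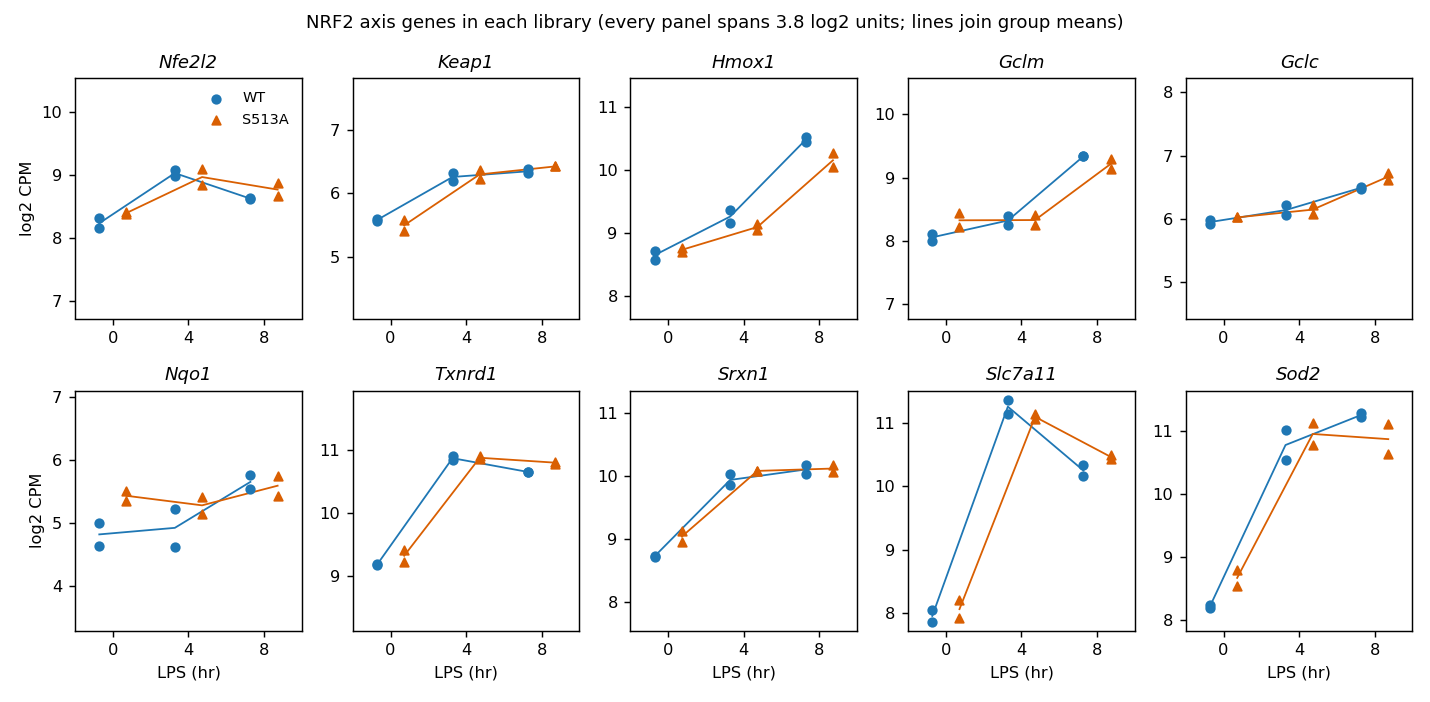
Level of each of the 10 genes in each library, as log2 CPM, against hours of LPS (0, 4, 8), with WT as circles, S513A as triangles and lines through the means of 2 libraries; every panel spans the same number of log2 units. *Slc7a11* peaked at 4 hr (11.06 to 11.37 log2 CPM against 7.86 to 8.20 at 0 hr), whereas *Hmox1*, *Gclm*, *Gclc* and *Nqo1* were highest at 8 hr.

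The response to LPS was tested as the mean of both genotypes, 4 libraries against 4, with limma across all genes, and a gene was called at a Benjamini-Hochberg adjusted p under 0.05. At 4 hr 7 of the 10 genes rose and 0 fell, beside 29.1% of all genes tested that rose and 26.7% that fell. The median log2 fold change of the 10 was 0.71, and that of all genes 0.02. At 8 hr all 10 rose, beside 24.5% of all genes that rose and 21.6% that fell, with a median of 1.16 for the 10 and -0.000702 for all genes. Between 4 and 8 hr 4 of the 10 rose and 2 fell, beside 12.8% of all genes in each direction. The 3 time comparisons share libraries. The normalization sets where 0 lies: when reads were scaled to the total of each library instead, the median of all genes moved by -0.25 at 4 hr and by -0.17 at 8 hr, and 30.9% of the calls at 4 hr were rises, against 52.2% with the deposited values (at 8 hr 35% against 53.2%, and from 4 to 8 hr 66.6% against 50%).

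*Nfe2l2* itself (chr2:75675513-75704641, minus strand) was at 8.31 and 8.15 log2 CPM in WT and 8.37 and 8.42 in S513A at 0 hr. It stood at 8.98 and 9.07 in WT and 9.10 and 8.83 in S513A at 4 hr, and at 8.62 and 8.63 in WT and 8.86 and 8.67 in S513A at 8 hr. All 8 stimulated libraries lay above all 4 libraries at 0 hr, and those of 4 and 8 hr overlapped. The mRNA rose by a log2 fold change of 0.68 ± 0.09 (SE) at 4 hr (1.6-fold, adjusted p = 5.06e-05) and was 0.38 ± 0.09 above 0 hr at 8 hr (adjusted p = 0.00384). From 4 to 8 hr it fell by 0.30 on the log2 scale (adjusted p = 0.0248). That fall lost its call in 4 of the 12 fits that left out 1 library, those without WT 8 hr replicate 1 or 2, S513A 4 hr replicate 1 or S513A 8 hr replicate 2 (adjusted p = 0.0724 to 0.0890). It was also lost with only the libraries compared (adjusted p = 0.0651), under quantile normalization (-0.18, adjusted p = 0.272) and under scaling to total reads (-0.21, adjusted p = 0.159). The 8 hr rise lost its call under quantile normalization (0.11, adjusted p = 0.460) and under scaling to total reads (0.21, adjusted p = 0.106).

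*Keap1* (chr9:21229730-21239361, minus strand), the adaptor that marks NRF2 for degradation, was at 5.59 and 5.56 log2 CPM in WT and 5.41 and 5.58 in S513A at 0 hr. At 4 hr it was at 6.19 and 6.33 in WT and 6.23 and 6.37 in S513A, and at 8 hr at 6.31 and 6.38 in WT and 6.43 and 6.43 in S513A. The 0 hr libraries lay below all others, and those of 4 and 8 hr overlapped. The log2 fold change was 0.74 ± 0.07 at 4 hr (adjusted p = 8.55e-06) and 0.85 ± 0.07 at 8 hr (adjusted p = 3.73e-06), so the mRNAs of the factor and of its inhibitor both rose. Of the exon bases of *Keap1*, 10.9% are shared with *Gm16754* on the opposite strand, and *Gclm* shares 4.7% with *Gm17494* on the opposite strand and 3.9% with the pseudogene *Gm6061*. The study mapped the read pairs as unstranded, and the strand setting of the counting is not given, so reads of these overlaps cannot be told apart.

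*Slc7a11* (chr3:49892526-50443614, minus strand), the cystine and glutamate exchanger that brings in cystine for glutathione, had the largest response of the 10 at 4 hr, while at 8 hr that of *Sod2* was larger. It was at 8.04 and 7.86 log2 CPM in WT and 7.92 and 8.20 in S513A at 0 hr, and at 11.15 and 11.37 in WT and 11.14 and 11.06 in S513A at 4 hr. At 8 hr it was at 10.34 and 10.16 in WT and 10.50 and 10.43 in S513A. The 3 time points did not overlap. At 4 hr the log2 fold change was 3.18 ± 0.10 (9.05-fold, adjusted p = 8.28e-10), and at 8 hr it was 2.36 ± 0.10 (5.12-fold, adjusted p = 1.08e-08). *Slc7a11* fell by 0.82 from 4 to 8 hr on the log2 scale (adjusted p = 0.000189). It also had the widest range of group means among the 10, 3.31 log2 units. Among the 4440 other genes whose group means span at least 1 log2 unit, those with the most similar levels over the 12 libraries were *Eif4g2*, *Icam1*, *Gas7*, *Mapkapk2* and *Pde4b*, each with a Pearson r of 0.997 or 0.998. These correlations describe libraries that share the same 3 time points.

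*Gclc* and *Gclm* encode the catalytic and the modifier subunit of glutamate-cysteine ligase, the rate-limiting enzyme of glutathione synthesis. *Gclm* (chr3:122245557-122270732, plus strand) was at 8.11 and 8.00 log2 CPM in WT and 8.21 and 8.44 in S513A at 0 hr. It was at 8.39 and 8.25 in WT and 8.24 and 8.41 in S513A at 4 hr, and at 9.34 and 9.34 in WT and 9.13 and 9.30 in S513A at 8 hr. Thus the libraries of 0 and 4 hr overlapped, and all 4 of 8 hr lay above them. The log2 fold change of *Gclm* was 0.13 ± 0.09 at 4 hr, which did not pass the test (adjusted p = 0.203), and 1.09 ± 0.09 at 8 hr (2.12-fold, adjusted p = 1.60e-06). The 4 hr value of *Gclm* depended on the scaling: it was -0.25 under quantile normalization (adjusted p = 0.0214), -0.12 under scaling to total reads (adjusted p = 0.220), and 0.21 without the 3 libraries that stood apart (adjusted p = 0.0335), and over all 24 alternatives the adjusted p ran from 0.0214 to 0.528.

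*Gclc* (chr9:77754535-77794485, plus strand) was at 5.92 and 5.98 log2 CPM in WT and 6.02 and 6.02 in S513A at 0 hr. It was at 6.06 and 6.22 in WT and 6.22 and 6.07 in S513A at 4 hr, and at 6.48 and 6.50 in WT and 6.61 and 6.72 in S513A at 8 hr. The 3 time points did not overlap, but the step to 4 hr was small. The log2 fold change was 0.16 ± 0.07 at 4 hr (adjusted p = 0.0914) and 0.59 ± 0.07 at 8 hr (adjusted p = 5.82e-05). The 4 hr value passed the test without WT 4 hr replicate 1 (0.20, adjusted p = 0.0389) and was -0.02 under quantile normalization (adjusted p = 0.814) and -0.10 under scaling to total reads (adjusted p = 0.336), in a range of adjusted p from 0.0239 to 0.814 over all 24 alternatives. From 4 to 8 hr *Gclm* rose by 0.95 ± 0.09 (adjusted p = 3.37e-05) and *Gclc* by 0.44 ± 0.07 (adjusted p = 0.00152).

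*Txnrd1* (chr10:82833951-82897712, plus strand), the cytosolic thioredoxin reductase, was at 9.18 and 9.19 log2 CPM in WT and 9.23 and 9.42 in S513A at 0 hr. It was at 10.84 and 10.90 in WT and 10.90 and 10.85 in S513A at 4 hr, and at 10.65 and 10.66 in WT and 10.78 and 10.82 in S513A at 8 hr. The 4 libraries of 4 hr lay above all others, by a narrow margin over those of 8 hr. On the log2 scale the change was 1.62 ± 0.08 at 4 hr (3.07-fold, adjusted p = 2.50e-08) and 1.47 ± 0.08 at 8 hr (2.77-fold, adjusted p = 7.06e-08), and the difference of -0.15 ± 0.08 from 4 to 8 hr did not pass the test (adjusted p = 0.195).

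*Srxn1* (chr2:152105516-152111376, plus strand), sulfiredoxin, which repairs over-oxidized peroxiredoxins, was at 8.73 and 8.73 log2 CPM in WT and 8.96 and 9.12 in S513A at 0 hr. It was at 10.03 and 9.85 in WT and 10.08 and 10.08 in S513A at 4 hr, and at 10.03 and 10.17 in WT and 10.07 and 10.17 in S513A at 8 hr. The libraries of 4 and 8 hr overlapped and lay above those of 0 hr. On the log2 scale the change was 1.12 ± 0.08 at 4 hr (2.18-fold, adjusted p = 6.10e-07) and 1.23 ± 0.08 at 8 hr (2.34-fold, adjusted p = 3.95e-07).

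*Sod2* (chr17:13006846-13040063, plus strand), the manganese superoxide dismutase of mitochondria, was at 8.19 and 8.25 log2 CPM in WT and 8.54 and 8.80 in S513A at 0 hr. It was at 11.01 and 10.54 in WT and 10.77 and 11.13 in S513A at 4 hr, and at 11.23 and 11.27 in WT and 10.63 and 11.11 in S513A at 8 hr. The stimulated libraries lay far above those of 0 hr, and replicates differed by up to 0.47 within a stimulated group. On the log2 scale the change was 2.42 ± 0.14 at 4 hr (5.34-fold, adjusted p = 1.20e-07) and 2.61 ± 0.14 at 8 hr (6.12-fold, adjusted p = 8.74e-08). The increase of 0.20 ± 0.14 from 4 to 8 hr did not pass the test (adjusted p = 0.349).

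*Hmox1* (chr8:75093621-75100589, plus strand), heme oxygenase 1, which breaks heme into biliverdin, iron and carbon monoxide, was at 8.73 and 8.58 log2 CPM in WT and 8.77 and 8.70 in S513A at 0 hr. It was at 9.37 and 9.15 in WT and 9.05 and 9.15 in S513A at 4 hr, and at 10.44 and 10.52 in WT and 10.05 and 10.26 in S513A at 8 hr. The 3 time points did not overlap, and most of the increase fell between 4 and 8 hr. The log2 fold change was 0.49 ± 0.09 at 4 hr (adjusted p = 0.000683), 1.62 ± 0.09 at 8 hr (3.08-fold, adjusted p = 8.20e-08) and 1.14 ± 0.09 from 4 to 8 hr (adjusted p = 1.57e-05). The 4 hr rise lost its call under quantile normalization (0.07, adjusted p = 0.467) and held in the other 23 alternatives.

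*Nqo1* (chr8:107388225-107403206, minus strand), a quinone reductase often used as a marker of NRF2 activity, had the fewest reads of the 10. It was at 5.004 and 4.64 log2 CPM in WT and 5.36 and 5.51 in S513A at 0 hr, at 5.22 and 4.63 in WT and 5.14 and 5.42 in S513A at 4 hr, and at 5.76 and 5.54 in WT and 5.43 and 5.75 in S513A at 8 hr. In WT the 8 hr libraries lay above the others, whereas in S513A the 0 hr libraries overlapped both those of 4 hr and those of 8 hr. The log2 fold change was -0.02 ± 0.15 at 4 hr (adjusted p = 0.905), 0.50 ± 0.15 at 8 hr (adjusted p = 0.0184) and 0.52 ± 0.15 from 4 to 8 hr (adjusted p = 0.0260). The 8 hr call was lost without WT 0 hr replicate 2, WT 8 hr replicate 1, S513A 0 hr replicate 1 or S513A 8 hr replicate 2 (adjusted p = 0.0596 to 0.0781), and the call from 4 to 8 hr without WT 4 hr replicate 2, WT 8 hr replicate 1, S513A 4 hr replicate 1 or S513A 8 hr replicate 2 (adjusted p = 0.0585 to 0.101). Scaling to total reads also ended the 8 hr call (0.33, adjusted p = 0.0691), and a prior without a trend and a fit of only the libraries compared ended the call from 4 to 8 hr (adjusted p = 0.0504 and 0.0524).

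**Figure D2:**
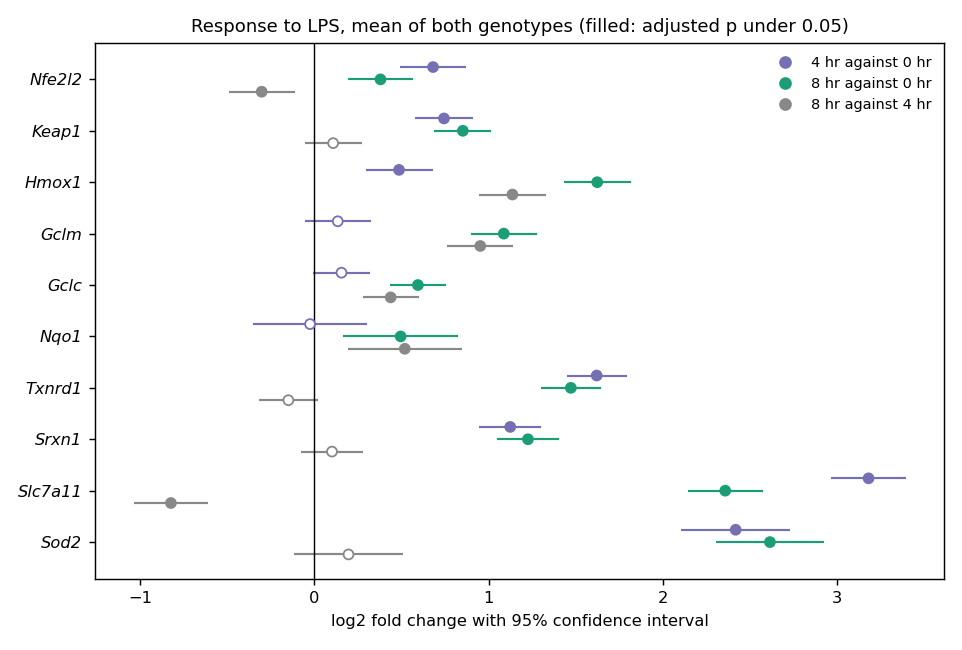
Log2 fold change of each of the 10 genes, mean of both genotypes, at 4 hr and 8 hr against 0 hr and at 8 hr against 4 hr, with 95% confidence intervals from the spread between libraries; filled points passed the test. *Slc7a11* and *Sod2* lie farthest to the right at both times, and *Gclm*, *Gclc* and *Nqo1* are open at 4 hr and filled at 8 hr.

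*Keap1*, *Txnrd1*, *Srxn1* and *Sod2* thus rose by 4 hr with no call from 4 to 8 hr. *Slc7a11* and *Nfe2l2* rose by 4 hr and fell afterwards. *Hmox1*, *Gclm*, *Gclc* and *Nqo1* rose from 4 to 8 hr, and of these only *Hmox1* was also called at 4 hr. The calls of *Nfe2l2* and *Nqo1* from 4 to 8 hr were lost in some fits, as given above. A difference that missed the threshold does not show an equal level, and the interval of the change from 4 to 8 hr ran from -0.06 to 0.27 for *Keap1*, from -0.32 to 0.02 for *Txnrd1*, from -0.08 to 0.28 for *Srxn1* and from -0.12 to 0.51 for *Sod2*. With the replicate pattern as a term *Sod2* was called from 4 to 8 hr (0.26, adjusted p = 0.00203).

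Within each genotype, 2 libraries against 2, the same 7 of the 10 genes as above rose at 4 hr both in WT (41.3% of all genes changed in either direction) and in S513A (43.2%). At 8 hr all 10 rose in WT (34.3% of all genes changed) and 9 rose in S513A (39.9%). The gene not called in S513A was *Nqo1*, with a log2 fold change of 0.16 ± 0.21 (95% confidence interval -0.30 to 0.62, adjusted p = 0.575), against 0.83 ± 0.21 in WT (0.37 to 1.30, adjusted p = 0.0108). Without the 3 libraries that stood apart *Gclm* passed the test at 4 hr in WT too (0.34, adjusted p = 0.0257, against 0.27 and 0.103 with them). Under quantile normalization 5 of the 7 calls at 4 hr remained in WT, where *Nfe2l2* was at 0.35 (adjusted p = 0.0928) and *Hmox1* at 0.11 (adjusted p = 0.469), and *Nfe2l2* and *Hmox1* lost theirs in S513A (0.22, adjusted p = 0.287, and 0.03, adjusted p = 0.839). Under scaling to total reads the same pair lost its calls at 4 hr in S513A (0.34, adjusted p = 0.0803, and 0.13, adjusted p = 0.367). At 8 hr *Nfe2l2* lost its call under both scalings in WT (-0.00397 and 0.14) and in S513A (0.22 and 0.29), and *Gclc* in WT under scaling to total reads (0.30, adjusted p = 0.0708). Several of the weaker calls also rested on single libraries. *Hmox1* at 4 hr in S513A (0.36, adjusted p = 0.0348) lost its call in 6 of the 12 fits that left out 1 library (adjusted p = 0.0530 to 0.162), *Nfe2l2* at 8 hr in WT (0.39, adjusted p = 0.0286) in 4 (adjusted p = 0.0550 to 0.174) and *Nfe2l2* at 8 hr in S513A (0.37, adjusted p = 0.0318) in 5 (adjusted p = 0.0516 to 0.205). The WT call of *Nqo1* was lost without WT 0 hr replicate 2 or WT 8 hr replicate 1 (adjusted p = 0.0955 and 0.0823).

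Between the genotypes, 0 of the 10 genes were called by limma at 0 hr (0.0337% of all genes called), at 4 hr (0.0168%), at 8 hr (0.0337%) or over the mean of the 3 times (0.0673%). At an unadjusted p under 0.05 there were 4 of the 10 at 0 hr (7.98% of all genes), 0 at 4 hr (7.01%), 1 at 8 hr (12.5%) and 2 over the mean of times (6.71%). With voom weights, 0 of the 10 were called in each of these comparisons as well. At 0 hr the S513A libraries were wholly above those of WT in 7 of the 10 genes (*Nfe2l2*, *Gclm*, *Gclc*, *Nqo1*, *Txnrd1*, *Srxn1* and *Sod2*), and wholly below in 0, beside 30.4% of all genes tested that were above and 27.1% below. The 4 genes past the unadjusted threshold are among these, and were higher in S513A: *Nqo1* by 0.61 (95% confidence interval 0.15 to 1.08), *Sod2* by 0.45 (0.01 to 0.89), *Srxn1* by 0.31 (0.06 to 0.56) and *Gclm* by 0.27 (0.00 to 0.54) on the log2 scale, each with an adjusted p of 0.586. *Nqo1* and *Sod2* passed the test when only the 4 libraries at 0 hr were fitted (adjusted p = 0.0444 for both) and without the 3 libraries that stood apart (adjusted p = 0.0257 and 0.0262), and their adjusted p over all 24 alternatives reached 0.900. Neither of the fits that called *Nqo1* and *Sod2* left out a 0 hr library. The differences thus stayed at 0.61 and 0.45, and only the p-values moved. With only the 4 libraries at 0 hr fitted, 693 of all genes were called, against 4 in the main fit. The smallest values over the alternatives were 0.41 for *Nqo1* and 0.21 for *Sod2*, with the replicate pattern as a term, and 0.16 for *Srxn1* and 0.15 for *Gclm*, under quantile normalization. The genotypes also differed along that pattern at 0 hr, so its term can take out part of the genotype difference. The other 6 genes differed at 0 hr by -0.08 (*Keap1*) to 0.16 (*Nfe2l2*).

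At 4 hr the differences between S513A and WT ran from -0.17 (*Hmox1*) to 0.36 (*Nqo1*, 95% confidence interval -0.11 to 0.82). At 8 hr the S513A libraries were wholly above in 5 of the 10 genes and wholly below in 3, beside 27.9% and 25.8% of all genes. *Hmox1* was then 0.33 lower in S513A on the log2 scale (interval of the difference -0.60 to -0.05, adjusted p = 0.395), and is 1 of the 3 below. The sums of the macrophage markers and of the resident macrophage markers, given above, were lower in S513A at that time too, though not every marker in them was. *Sod2* differed by -0.38 at 8 hr (interval -0.82 to 0.06, adjusted p = 0.417), and the lower of its 2 S513A libraries was replicate 1, a library that stood apart. Averaged over the 3 times, *Nqo1* differed by 0.30 (0.03 to 0.57) and *Srxn1* by 0.16 (0.01 to 0.30), with adjusted p of 0.699 and 0.716. At 8 hr the intervals of the other genes all spanned 0, from -0.52 to 0.40 for *Nqo1* to -0.09 to 0.52 for *Slc7a11*.

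The difference of the LPS responses between the genotypes, tested as an interaction with limma, called 0 of the 10 genes at 4 hr (0% of all genes called) and 0 at 8 hr (0%). At an unadjusted p under 0.05 there were 0 of the 10 at 4 hr (1.21% of all genes) and 4 at 8 hr (20.2%), and with voom weights 0 of the 10 were called at either time. The interaction, S513A minus WT, at 8 hr was negative in these 4 genes: *Sod2* at -0.83 ± 0.28 (2.20 against 3.03 in WT, adjusted p = 0.197), *Nqo1* at -0.67 ± 0.30 (0.16 against 0.83, adjusted p = 0.242), *Hmox1* at -0.41 ± 0.17 (1.42 against 1.83, adjusted p = 0.233) and *Gclm* at -0.39 ± 0.17 (0.89 against 1.28, adjusted p = 0.237). These values shrank under some fits and grew under others. The smallest were -0.38 for *Sod2* and -0.29 for *Nqo1*, with the replicate pattern as a term, and -0.16 for *Hmox1* and -0.21 for *Gclm*, under quantile normalization. Leaving out 1 library moved them as far as -1.07 for *Sod2*, -0.85 for *Nqo1*, -0.52 for *Hmox1* and -0.50 for *Gclm*. *Sod2* alone passed the test in 1 of 24 alternatives, without the 3 libraries that stood apart (-0.60, adjusted p = 0.0484, in a range from 0.0484 to 0.587), where 857 of all genes were called.

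**Figure D3:**
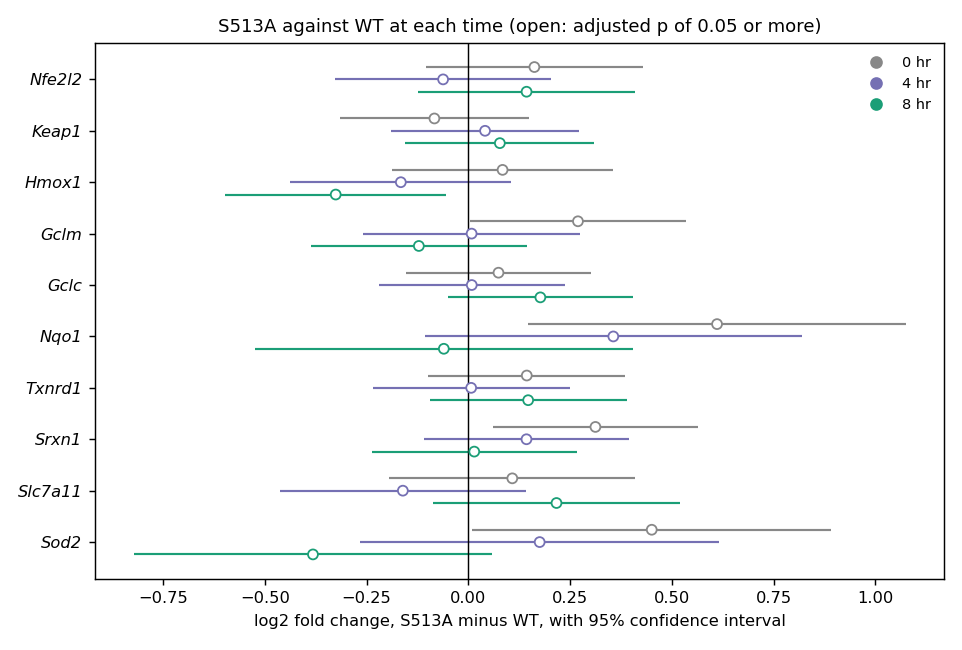
Difference between S513A and WT (S513A minus WT, log2) for each of the 10 genes at 0, 4 and 8 hr, with 95% confidence intervals; every point is open because none passed the test. *Nqo1*, *Sod2*, *Srxn1* and *Gclm* have intervals above 0 at 0 hr, and *Hmox1* has one below 0 at 8 hr.

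The replicate pattern touched these genes unequally. Its score differed most between the replicates of WT 4 hr, S513A 4 hr and S513A 8 hr, and the gene with the largest gap there was *Nqo1* in WT 4 hr (0.60), *Sod2* in S513A 4 hr (0.36) and *Sod2* in S513A 8 hr (0.47). In S513A 8 hr, 8 of the 10 genes were higher in replicate 2, the library with the higher score. The score was taken from the whole profile of a library, so it also differed between groups. At 8 hr it was 0.29 and 0.70 in WT and -1.62 and 0.57 in S513A. With the pattern as a term in the model, the 8 hr interaction was -0.38 for *Sod2* (adjusted p = 0.276) and -0.29 for *Nqo1* (adjusted p = 0.716). That term can also take out part of a group difference, so the fit cannot tell the replicate pattern from the genotype.

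To set the 10 genes beside related genes, 71 others were listed by function as possible NRF2 targets, and 67 of them were tested. The lists also hold general redox genes, such as *Hmox2*, *Txnip*, *Txn2* and *Txnrd2*. Which of the 71 depend on NRF2 in these cells was not tested, and other targets is used below only as a name. At 4 hr 12 rose and 19 fell, beside 29.1% of all genes that rose and 26.7% that fell. At 8 hr 22 rose and 18 fell, beside 24.5% and 21.6%. From 4 to 8 hr 22 rose and 5 fell, beside 12.8% in each direction. These shares of all genes also stand beside the counts of each list below. The median log2 fold change of the 67 was -0.17 at 4 hr and 0.01 at 8 hr, against 0.02 and -0.000702 for all genes. Without the 3 libraries that stood apart, 18 rose and 18 fell at 4 hr, 28 rose and 21 fell at 8 hr, and 25 rose and 9 fell from 4 to 8 hr. With scaling to total reads, 9 rose and 40 fell at 4 hr, beside 2187 and 4886 of all 11885 genes. At 8 hr 21 rose and 26 fell with that scaling, beside 2029 and 3766 of all genes. With quantile normalization 12 rose and 32 fell at 4 hr, beside 2982 and 3571 of all genes. At 8 hr 17 rose and 21 fell with it, beside 2473 and 3075.

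Of 10 other glutathione genes, 4 rose and 1 fell at 4 hr, and 5 rose and 2 fell at 8 hr. *Slc3a2*, the partner chain of the *Slc7a11* product, rose by 1.43 at 4 hr and 1.2 at 8 hr on the log2 scale (adjusted p = 8.07e-08 and 4.09e-07). *Ggct*, which splits gamma-glutamyl dipeptides, rose by 1.51 at 4 hr (adjusted p = 0.000112), and *Oplah*, the oxoprolinase that acts after it, fell by 1.01 (adjusted p = 0.00385). *Oplah* had few reads, at 0.47 to 1.045 log2 CPM at 0 hr and -0.26 to 0.14 at 4 hr. Of 12 glutathione S-transferases tested, 0 rose and 4 fell at 4 hr, beside 29.1% and 26.7% of all genes. At 8 hr 0 rose and 7 fell, beside 24.5% and 21.6%. The count of rises was 0 at an unadjusted p under 0.05 and with voom weights too, at both times, but without the 3 libraries 1 rose and 7 fell at 8 hr. The largest of the 4 hr falls were those of *Gstt2* (-0.80, adjusted p = 0.00761), *Gstz1* (-0.51, adjusted p = 0.00316) and *Gstm1* (-0.43, adjusted p = 0.00109). The 8 hr falls were unequal between the genotypes. In WT 0 of the 12 rose and 2 fell, with a median log2 fold change of -0.02, beside 14.9% of all genes that fell. In S513A 0 rose and 8 fell, with a median of -1.11, beside 19% of all genes that fell. The median interaction at 8 hr was -0.92, with 0 of the 12 called. *Gsta1*, *Gsta2*, *Gsta4* and *Gstt1* were not tested, because they were not listed or did not pass the filter.

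Of 14 thioredoxin and peroxiredoxin genes, 1 rose and 5 fell at 4 hr, and 2 rose and 3 fell at 8 hr. *Prdx5*, a peroxiredoxin, rose by 1.16 at 4 hr (adjusted p = 0.000585), while the sestrin *Sesn1* fell by 1.96 (adjusted p = 2.31e-07) and the thioredoxin reductase *Txnrd3* by 0.89 (adjusted p = 0.00246), unlike *Txnrd1*. Without the 3 libraries 5 of the 14 rose and 5 fell at 4 hr. Of 9 genes for NADPH supply, which feeds both thiol systems, 2 rose and 2 fell at 4 hr, 4 rose and 2 fell at 8 hr, and 6 rose and 0 fell from 4 to 8 hr. The isocitrate dehydrogenases *Idh1* and *Idh2* fell by 1.44 and 0.77 at 4 hr (adjusted p = 1.24e-07 and 0.000128), and malic enzyme *Me1* rose by 0.71 (adjusted p = 0.00305).

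Of 8 other genes for heme and iron, 1 rose and 3 fell at 4 hr, and 3 rose and 1 fell at 8 hr. The iron exporter *Slc40a1* fell by 1.03 at 4 hr (adjusted p = 0.00243) and stood at 0.09 at 8 hr (adjusted p = 0.778). The biliverdin reductase *Blvra*, which acts on the product of *Hmox1*, fell by 0.55 at 4 hr (adjusted p = 0.00409), and the ferritin heavy chain *Fth1* rose by 0.50 (adjusted p = 0.0311). Of 14 genes for detoxification and export, 4 rose and 4 fell at 4 hr, 8 rose and 3 fell at 8 hr, and 8 rose and 0 fell from 4 to 8 hr. The exporter *Abcc1* rose by 1.6 at 4 hr and 1.86 at 8 hr (adjusted p = 7.84e-07 and 2.96e-07), the carbonyl reductase *Cbr1* fell by 1.06 at 4 hr (adjusted p = 4.35e-05), and *Adh7* was called at 4 hr with few reads, at -2.38 to -0.88 log2 CPM at 0 hr and -0.81 to 0.75 at 4 hr. Of the other superoxide dismutases, cytosolic *Sod1* differed by -0.27 at 4 hr (adjusted p = 0.147) and fell by 0.48 at 8 hr (adjusted p = 0.0225). In WT the libraries of *Sod1* overlapped, at 7.452 and 7.295 log2 CPM at 0 hr and 7.247 and 7.38 at 8 hr. In S513A they were at 7.723 and 7.562 at 0 hr and, for replicates 1 and 2, at 6.408 and 7.091 at 8 hr. Secreted *Sod3* was called at both times, but stood at -3.12 to -2.04 log2 CPM at 0 hr, at or under 3 reads in each library, and at -0.26 to 0.31 at 4 hr.

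**Figure D4:**
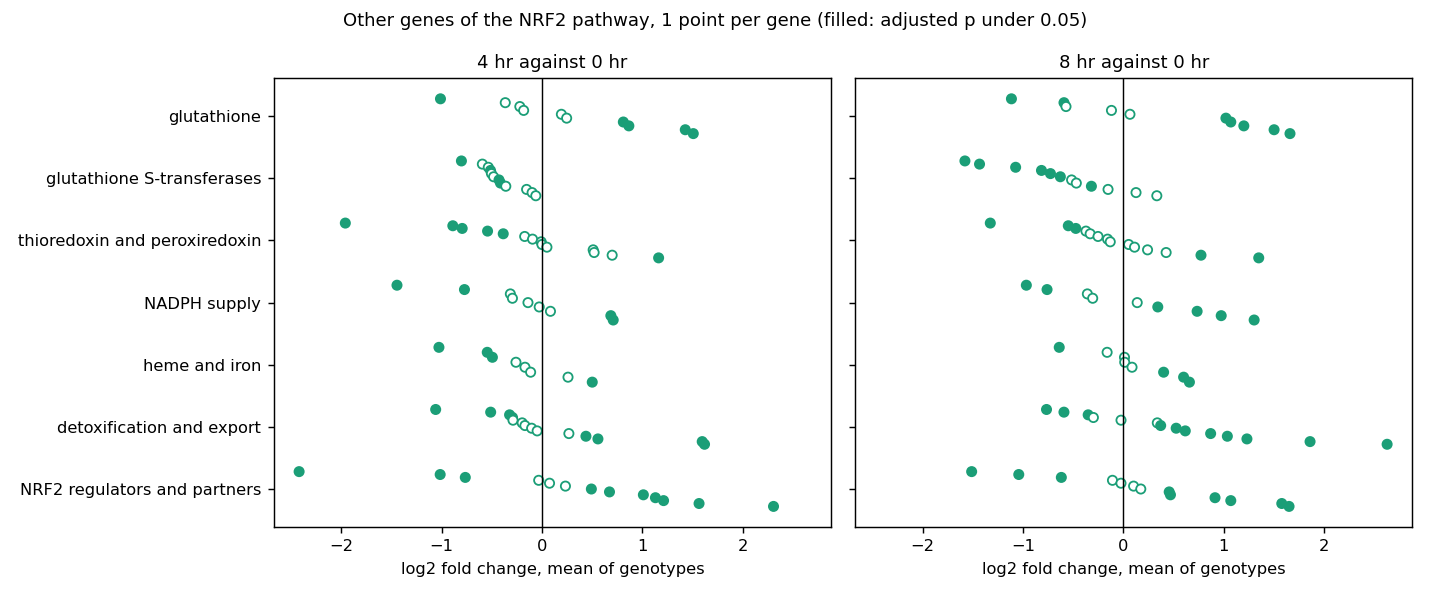
Log2 fold change at 4 hr and at 8 hr against 0 hr, mean of both genotypes, of the other genes listed by function as possible NRF2 targets and of the regulators and partners of NRF2, 1 point per gene and filled where the test was passed. The glutathione S-transferases have no filled point above 0 at either time, while the list for detoxification and export goes from 4 filled points above 0 at 4 hr to 8 at 8 hr.

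Of 13 regulators and partners of NRF2 tested (*Nfe2l3* was not), 7 rose and 3 fell at 4 hr, and 6 rose and 3 fell at 8 hr. *Maff*, a small MAF protein that pairs with NRF2, rose by 2.31 at 4 hr (adjusted p = 1.26e-07), and *Sqstm1*, which encodes the autophagy receptor p62 that binds KEAP1, rose by 1.57 (adjusted p = 4.54e-08). *Bach2*, a repressor related to BACH1 that binds the same kind of element, fell from 0.78 to 1.99 log2 CPM at 0 hr to -2.52 to -0.05 at 4 hr (adjusted p = 8.84e-05). Of 8 genes for sources of oxidants and electrophiles, 6 rose and 1 fell at 4 hr, and 6 rose and 0 fell at 8 hr. *Acod1*, which makes itaconate, rose by 5.15 at 4 hr and 4.45 at 8 hr (adjusted p = 3.10e-11 and 1.60e-10), and *Rac2*, the small GTPase of the phagocyte oxidase, rose by 1.06 and 1.41 (adjusted p = 5.87e-07 and 8.26e-08). *Nos2*, the inducible nitric oxide synthase, was at or under 3 reads in all 4 libraries at 0 hr and at 3.67 to 4.47 log2 CPM at 4 hr.

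By limma 0 of the 67 other targets and 0 of the 13 regulators were called between the genotypes at any time, and 0 with voom weights. At an unadjusted p under 0.05, 6 of the 67 were higher in S513A at 0 hr, 1 was lower at 4 hr and 19 were lower at 8 hr, beside 7.98%, 7.01% and 12.5% of all genes in either direction. In WT, 26 of the 67 other targets rose and 9 fell at 8 hr, with a median of 0.26, beside 19.4% of all genes that rose and 14.9% that fell. In S513A 12 rose and 23 fell, with a median of -0.25, beside 20.9% of all genes that rose and 19% that fell. The median interaction at 8 hr was -0.54 over the 67, against 0.01 over all genes, and 0 of the 67 were called by limma or with voom weights, while at an unadjusted p under 0.05 there were 1 higher and 30 lower, beside 20.2% of all genes in either direction. Without S513A 8 hr replicate 1 the median interaction was -0.42, and without S513A 8 hr replicate 2 it was -0.73. Without the 3 libraries that stood apart, the median was -0.42. Each of these fits left 1 S513A library at 8 hr, so only the size of the median is given. With the replicate pattern as a term in the model the median was -0.24 and 0 were called, but that term can also take out part of a group difference. These medians carry no test of their own.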

How the data were processed

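Per the labels and the study's methods, the authors sequenced polyA RNA, mapped the read pairs on mm10 with HISAT2, unstranded, and counted them with featureCounts 1.6.3. The deposited values are log2 CPM, normalized by the authors with 0.5 read added; the program is not given in the sources used here. Multiplying back gave whole reads for every value (largest departure 0.00144 read), with 9525979 to 12439960 reads per library, so counting error is small for these genes. From there, limma 3.58.1 in R 4.3.3 was fitted to the log2 values with 6 group means and a prior that follows the mean level, on the 11885 genes that reached 1 CPM in 2 or more libraries. Two-sided p-values were adjusted (Benjamini-Hochberg) over all of these genes, with a threshold of 0.05, and limma gives the SE and the 95% confidence intervals. The model was tested on simulated data. The 10 genes, the lists and the markers were chosen with earlier results of these data known. Of each list, at most 3 genes with the largest change among those called at 4 hr, mean of genotypes, are named with values, together with *Sod1*, named after its values were seen. Alternatives were other filters, a further pseudocount, median-ratio and quantile scaling, a replicate block, no trend, voom weights, fits of only the libraries compared, a replicate factor as a term and each library left out; scaling to total reads and leaving out 3 libraries together were chosen after seeing the data. The replicate factor is the leading component of the differences between replicates. Each library was scored on it from its whole profile, so the scores also differ between groups. The 3 libraries left out together are the lower on it in the 3 pairs that differed most. Gene positions and exon lengths are those of GENCODE M21 (GRCm38), which held 93.1% of the listed genes. Promoters are RefSeq's. KEAP1-binding motifs in the NRF2 protein were not looked for, since no protein table was used here. The 12 columns of the table were all matched to samples by name.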

Additional observations from a re-analysis of the deposited data

How the results depend on the processing

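Over the alternatives, the number of the 10 genes called in the mean of genotypes was 7 or 8 at 4 hr, 8 to 10 at 8 hr and 4 to 7 from 4 to 8 hr. Within a genotype it was 5 to 8 at 4 hr in WT, 5 to 7 at 4 hr in S513A, 8 to 10 at 8 hr in WT and 8 or 9 at 8 hr in S513A. Between the genotypes at 0 hr it went from 0 to 2 (*Nqo1* and *Sod2*) with only the libraries compared and to 2 without the 3 libraries that stood apart, and for the interaction at 8 hr from 0 to 1 (*Sod2*) without those 3; the cause was not tested. Some values changed sign, among them 1 that had been called (*Nfe2l2* at 8 hr in WT) and 2 that became called falls under quantile normalization (*Gclm* at 4 hr, adjusted p = 0.0214, and in S513A, adjusted p = 0.0297). The counts above are of calls in either direction, so these 2 falls of *Gclm* are among them and not every call counted is a rise. Under quantile normalization, at 4 hr, *Gclm* was at -0.25 (WT -0.15, S513A -0.35) and *Gclc* at -0.0221 (S513A -0.0444), and *Nfe2l2* at 8 hr in WT was at -0.00397. Under scaling to total reads, chosen after seeing the data, *Gclm* was at -0.12 (WT -0.00949, S513A -0.23), *Gclc* at -0.10 (WT -0.0859, S513A -0.11) and *Nqo1* in WT at -0.17, all at 4 hr. *Gclm* at 4 hr in S513A was at -0.00539 with median-ratio scaling and -0.0309 with the replicate factor, which put *Nqo1* at 4 hr in WT at -0.0115. Without the 3 libraries, also chosen after seeing the data, *Nqo1* at 4 hr was at 0.20. Leaving out 1 library at a time moved *Nqo1* at 4 hr from -0.17 to 0.13 (WT -0.20 to 0.40), *Gclm* at 4 hr in S513A from -0.11 to 0.12 and *Nqo1* at 8 hr in S513A from -8.98e-05 to 0.32. Replicate numbers are shared between the groups but mark only a number: the correlation of replicate differences between groups ran from -0.75 to 0.76. With the replicate block, the number of the 10 genes called stayed at 7 at 4 hr and 10 at 8 hr, and over all genes the calls between genotypes went from 4 to 2 at 0 hr and from 2 to 1 at 4 hr. Counts over all genes moved by more than 1.5 times between genotypes (4 at 0 hr, from 0 up to 693 with only the libraries compared and 1247 without the 3 libraries; 2 at 4 hr, 0 to 5; 4 at 8 hr, 0 to 19; 8 over the mean of times, 3 to 89), from 4 to 8 hr (3043, but 4867 with the replicate factor and 2021 without WT 8 hr replicate 1), at 8 hr in WT (4079, but 6185 without the 3 libraries, 2659 without WT 0 hr replicate 1 and 2489 without WT 8 hr replicate 2), at 8 hr in S513A (4744, but 2994 and 3152 without S513A 0 hr replicate 1 or 2) and the interaction at 8 hr (0, but 651 without S513A 8 hr replicate 2 and 857 without the 3 libraries). Where a group was left with 1 library, that library was assumed to vary like the other groups. Depth does not limit these 10 genes, whereas *Sod3*, *Nos2*, *Adh7*, *Bach2* and *Oplah* had few reads.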
